A study of Mus musculus with 15 samples.

Results

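The miR-23, miR-24 and miR-27 miRNAs of mouse pancreatic endocrine cell lines are described here. They were taken by name from the TaqMan rodent low density arrays, which gave 11 of the 584 miRNA assays. Card A held mmu-miR-23a, mmu-miR-23b, mmu-miR-24, mmu-miR-27a and mmu-miR-27b, and card B held the star-strand assays mmu-miR-24-1*, mmu-miR-24-2*, mmu-miR-27a*, mmu-miR-27b*, rno-miR-23a* and rno-miR-24-1*, of which the last pair are designed for rat. The mouse prefix is left out below. The rule for membership uses names only. The arrays were run on 15 samples, 3 independent biological replicates of each of 5 groups. The groups were untreated αTC1-6 cells, a glucagon-producing mouse line, at 24 h and at 48 h, αTC1-6 cells treated for 24 h or for 48 h with a mixture of 3 cytokines (50 IU/ml IL-1β, 1000 IU/ml IFN-γ and 1000 IU/ml TNF-α), and untreated βTC1 cells, an insulin-producing mouse line, at 24 h. All are tumour lines, each kind of cell is represented by 1 line, and no cytokine-treated βTC1 sample was analysed here. The islet miRNA miR-375 had a threshold cycle in all 15 samples. So did miR-223 and miR-142-3p of blood, miR-206 of muscle, miR-126-3p and miR-126-5p of endothelium, and miR-145 and miR-199a-3p of mesenchyme. A threshold cycle alone therefore does not set islet cells apart. Other markers of the same lists lacked a normalized threshold cycle in some samples. They were miR-451 and miR-142-5p of blood, miR-1, miR-133a and miR-133b of muscle, and miR-143 and miR-214 of mesenchyme. The same held for miR-122 of liver and for miR-216a, miR-216b and miR-217 of exocrine pancreas. MiR-7a and miR-7b, also of islets, each lacked a normalized value in a sample.

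In mammals these miRNAs come from a pair of short clusters that arose by duplication, each of which is transcribed as a single precursor and then cut into a miR-23, a miR-27 and a miR-24 hairpin. Every hairpin gives a guide strand, which pairs with target mRNAs mainly through its seed, and a star strand, which is usually scarcer. The families are best known from blood vessels, adipocytes and lymphocytes, and miR-24 has also been linked to insulin synthesis in β cells. In the RefSeq gene table of GRCm38.p6 the first cluster holds Mir23a (chr8:84208518-84208592), Mir27a (chr8:84208672-84208758) and Mir24-2 (chr8:84208815-84208921) within 404 bp, and the next gene after it, Zswim4, starts 2021 bp away. The other cluster holds Mir23b (chr13:63300484-63300557), Mir27b (chr13:63300712-63300784) and Mir24-1 (chr13:63301208-63301275) within 792 bp. It lies inside the protein-coding gene Aopep (chr13:62964893-63326096).

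The mature sequences are shown because the reading of each assay depends on them: miR-27a and miR-27b are nearly the same molecule, miR-24 comes from both clusters, and the star strands tell the clusters apart. They are written 5′ to 3′ from RefSeq, with the seed (bases 2 to 8) in capitals, for the 8 assays that matched an entry of that table.
miR-23a: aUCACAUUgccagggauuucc
miR-24: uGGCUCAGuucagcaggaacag
miR-27a: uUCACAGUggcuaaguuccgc
miR-27b: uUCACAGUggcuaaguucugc
miR-27a*: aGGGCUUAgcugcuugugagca
miR-27b*: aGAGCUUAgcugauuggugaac
miR-24-2*: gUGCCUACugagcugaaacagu
miR-24-1*: gUGCCUACugagcugauaucagu
Both miR-27 guide strands share the seed UCACAGU and differ only by C19U, counted from the 5′ end of miR-27a, so signal from the other paralog in either assay cannot be told apart here. The miR-27 star strands differ at 8 positions, G3A in the seed among them, and the miR-24 star strands share the seed UGCCUAC. The miR-24 guide strand is identical at both loci, and its assay reads their sum.

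Each well gave a Ct (threshold cycle), which is reached after fewer PCR cycles the more miRNA is present. The deposited ΔCt expresses every assay relative to miR-26a of that sample by subtraction, so a log2 difference is a difference of negative ΔCt and is positive where the miRNA is higher. A Ct depends on the assay, so levels of different miRNAs were not compared. MiR-26a itself had Ct values of 17.53 to 18.98 at 24 h and of 16.97 to 18.98 at 48 h. On card A, 214 to 276 miRNAs had a Ct in the normalized table at 24 h and 304 to 337 at 48 h. The number of wells set to undetermined in that table although the non-normalized table gives a Ct was 59 to 85 per 24 h sample and 0 to 1 per 48 h sample. Of all Ct values, 36.1% lay in the final 0.1 of a cycle before a whole number, where an even spread would give 10%, and the same held for 62 of the 165 Ct values of these assays. Among the guide strands it held for 1 of 15 Ct values of miR-23a and 6 of 15 of miR-23b. For miR-24, miR-27a and miR-27b it held for 7 of 15 each. The part of this heaping in the results was not tested.

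All 11 assays had a Ct in all 15 samples when the non-normalized table was read. The abundant miR-24 had Ct values of 15.95 to 17.96, the 4 remaining guide-strand assays lay between 20.96 and 25.98, and rno-miR-23a* between 30.15 and 34.02. MiR-23a was the assay most affected by the change between tables. Its Ct in the non-normalized table lay between 21.97 and 24.08, but in 7 of the 9 samples of 24 h the normalized table lists it as undetermined, with a Ct of 40. MiR-23a is therefore described below by its non-normalized Ct, and it was not testable in the normalized table for the comparison of the lines or for cytokines at 24 h. MiR-23b is blank in cytokine-treated αTC1-6 replicate 1 of 24 h and miR-27b* in untreated αTC1-6 replicate 1 of 24 h. Rno-miR-24-1* ranged from a Ct of 14.46 to 32.95, with an SD of ΔCt of 8.17 in untreated αTC1-6 at 24 h, and no reading is made from it.

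**Figure D1:**
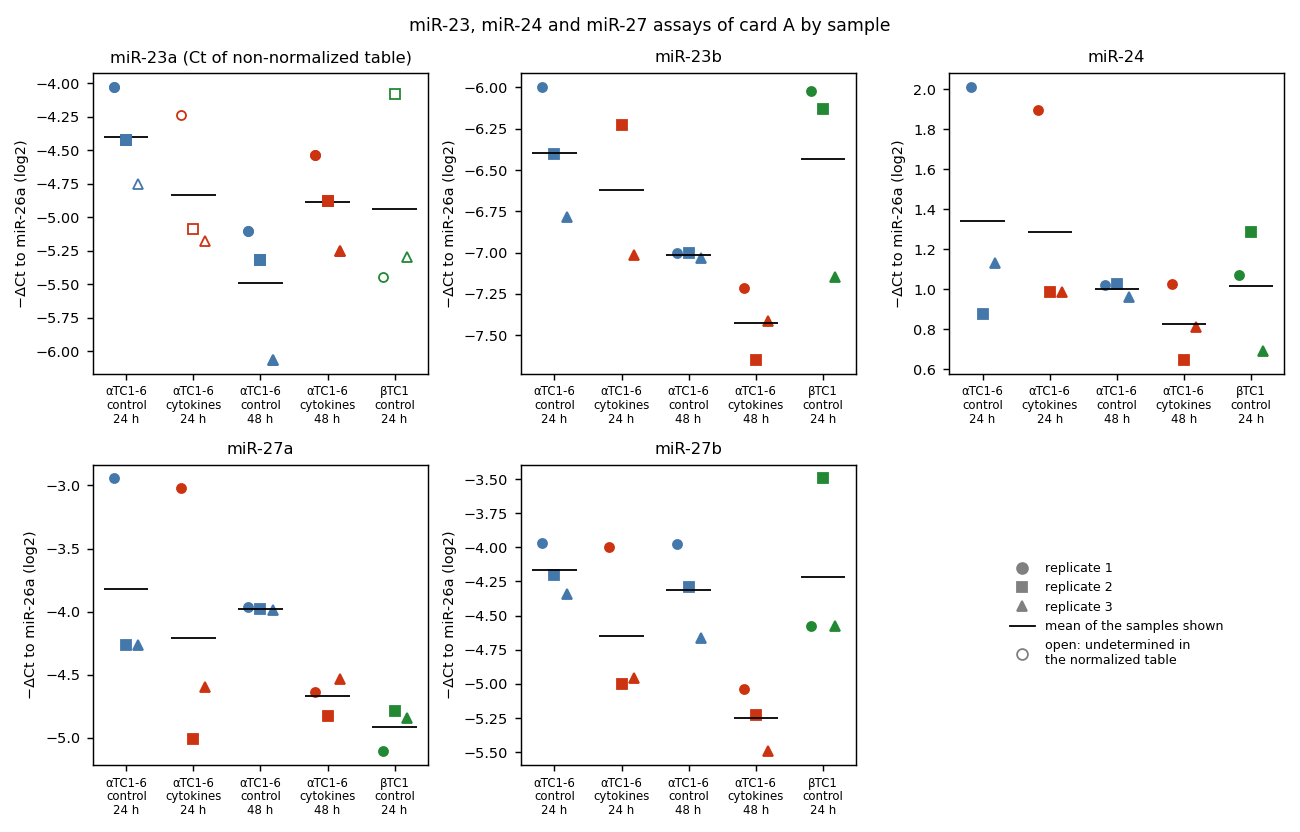
Negative ΔCt to miR-26a (log2 scale, y axis) of the 5 assays of card A in each sample of the 5 groups (x axis), with a line at the mean. Open symbols mark the 7 samples in which miR-23a is undetermined in the normalized table. The 3 miR-27a values of untreated αTC1-6 lie above the 3 of βTC1 at 24 h, and treated cells of 48 h lie below untreated ones for miR-23b, miR-27a and miR-27b.

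The first comparison asked how the lines differ at steady state, with 3 untreated αTC1-6 and 3 untreated βTC1 samples of 24 h. MiR-27a was the only one of these miRNAs whose samples did not overlap between the lines. Its ΔCt was 2.94, 4.26 and 4.26 in αTC1-6 and 5.11, 4.79 and 4.84 in βTC1. Every αTC1-6 sample thus held more miR-27a relative to miR-26a than every βTC1 sample, with replicate 1 of αTC1-6 far above the others. The miR-27a Ct of the αTC1-6 samples was 21.93, 21.81 and 21.95, and that of miR-26a 18.98, 17.55 and 17.69. With Ct without normalization the log2 difference was 1.23 (limma adjusted p = 0.065). The log2 difference was 1.09 (SE 0.54, 95% confidence interval −0.24 to 2.42), and the limma adjusted p was 0.164. Of the 10 assays tested, 0 passed the adjusted threshold of 0.05 and 0 had an unadjusted limma p under 0.05, where 29.6% and 37.9% of all 480 miRNAs tested did. Non-overlapping groups with αTC1-6 higher were found for 1 of the 10, against 17.3% of all miRNAs.

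The other guide strands lay close together in the lines. MiR-24 had a ΔCt of −2.01, −0.88 and −1.13 in αTC1-6 and −1.07, −1.28 and −0.69 in βTC1, a log2 difference of 0.33 (95% confidence interval −0.91 to 1.56). MiR-23b differed by 0.04 (−1.26 to 1.33) and miR-27b by 0.05 (−1.18 to 1.27). The groups overlapped in all 3. The intervals of miR-23b and miR-27b leave room for differences of more than 1 cycle either way, and that of miR-24 for such a difference with αTC1-6 higher. In the non-normalized table miR-23a had a ΔCt of 4.03, 4.42 and 4.75 in αTC1-6 and 5.45, 4.08 and 5.30 in βTC1, with a log2 difference of 0.54 (−0.89 to 1.97, limma adjusted p = 0.595). The median log2 difference was 0.19 over the 10 assays and −0.52 over all miRNAs tested. With centring on the median of each sample, miR-27a (log2 difference 1.68, limma adjusted p = 0.020) and miR-24 (0.92, adjusted p = 0.048) passed the threshold. With U6 and small nucleolar RNAs as the reference the values were 0.62 for miR-27a and −0.14 for miR-24, and without αTC1-6 replicate 1 they were 0.65 and −0.011.

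The star strands had differences of both signs between the lines, and 0 of them passed the adjusted threshold. MiR-27a* had a ΔCt of 4.17, 7.15 and 7.22 in αTC1-6 against 7.55, 6.75 and 7.73 in βTC1. MiR-27b* had 9.27 and 9.97 in the αTC1-6 replicates with a value and 7.68, 7.82 and 9.38 in βTC1. The log2 differences were 1.16 (−1.23 to 3.56) and −1.32 (−3.33 to 0.69), and both groups overlapped. Without αTC1-6 replicate 1 the value of miR-27a* was 0.16, and in the non-normalized table, which holds all 3 αTC1-6 samples, that of miR-27b* was −0.62. MiR-24-2* differed by 0.57 and miR-24-1* by −0.86, with limma adjusted p-values of 0.662 and 0.431. Without αTC1-6 replicate 1 miR-24-2* was at −0.0088. Rno-miR-23a*, the star strand of miR-23a on chromosome 8, differed by −0.53 (−2.15 to 1.09). MiR-26a was measured on card A only, so these values also carry any shift between the cards. The median ΔCt of the 128 miRNAs of card B with a Ct in every sample ranged from 7.43 to 10.1 between samples, and that of the 151 of card A from 5.88 to 7.51.

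**Figure D2:**
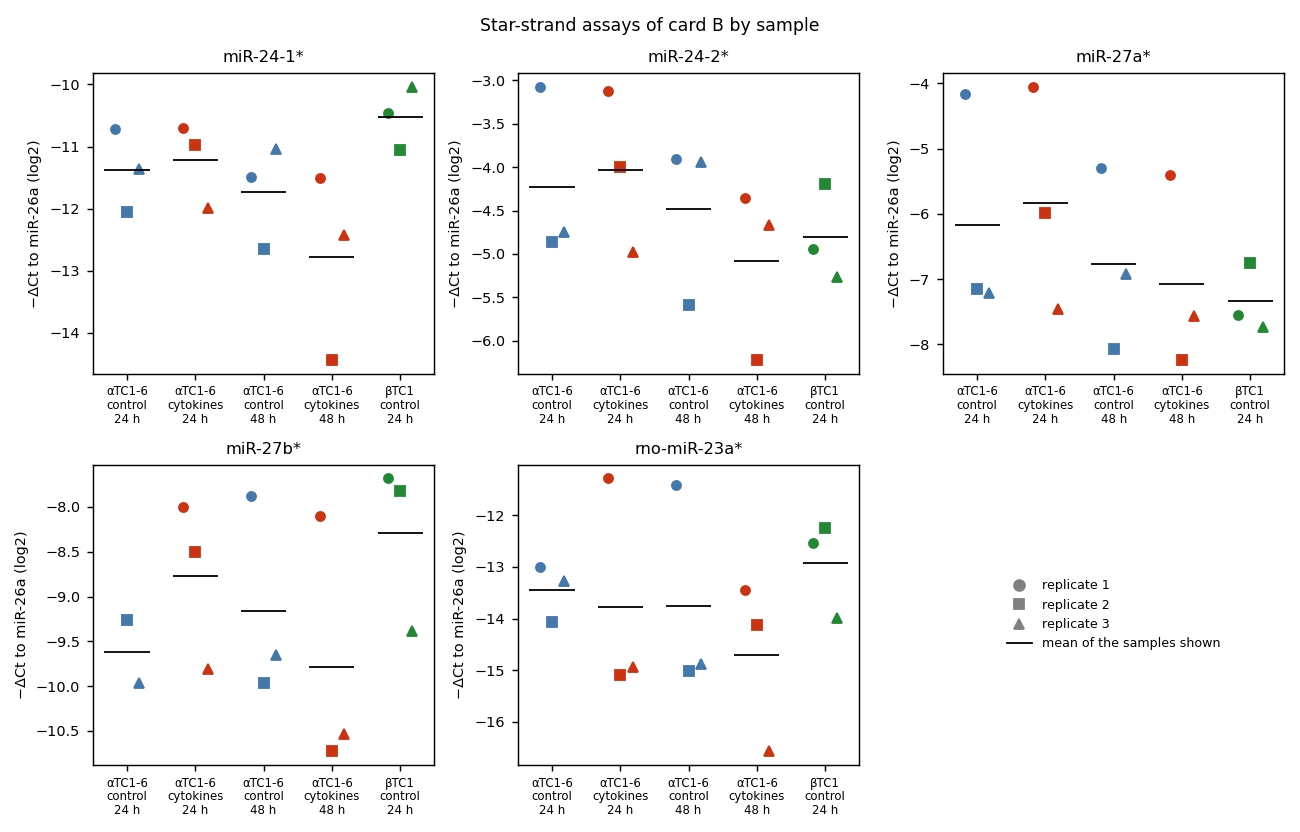
Negative ΔCt to miR-26a (log2 scale, y axis) of 5 star-strand assays of card B in each sample of the 5 groups (x axis), with a line at the mean. Replicate 1 of αTC1-6 is the highest of its group for miR-24-2* and miR-27a* in all 4 αTC1-6 groups.

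The ratio of the paralogs within a sample needs no reference miRNA and compares wells of 1 card. It was taken as the Ct of the chromosome 13 assay minus that of the chromosome 8 assay, so that a higher log2 ratio stands for relatively more product of chromosome 8. The miR-27a over miR-27b ratio was 1.03, −0.06 and 0.07 in αTC1-6 and −0.53, −1.29 and −0.27 in βTC1. Its mean was 0.35 ± 0.59 (SD, n = 3) against −0.70 ± 0.53 (SD, n = 3), a difference of 1.04 (SE 0.46, two-sided exact permutation p = 0.1, the smallest that 3 against 3 samples allow). The lines did not overlap.

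The star strands of the same hairpins gave the same order. The miR-27a* over miR-27b* ratio was 2.12 and 2.75 in αTC1-6 and 0.13, 1.08 and 1.65 in βTC1, a difference of 1.48 (SE 0.54, exact permutation p = 0.2 with 2 against 3 samples). In the non-normalized table, which holds all 6 values, it was 3.37, 2.16 and 2.73 against 0.20, 1.07 and 1.64, with a difference of 1.78 (exact permutation p = 0.1), where 39% of pairs of card B did not overlap. That table carries a single duplicate well for these assays. The miR-24-2* over miR-24-1* ratio differed by 1.43 (SE 0.68, exact permutation p = 0.2), and the miR-23a over miR-23b ratio of the non-normalized table by 0.50 (SE 0.46, exact permutation p = 0.4), both with overlap. All 4 differences were positive and 2 of the 4 pairs did not overlap. Among all pairs of miRNAs of card A with a Ct in every sample, 66.6% did not overlap between the lines, and 37.3% of those of card B, so a ratio that separates the lines is common on these arrays. The treated and the 48 h samples of αTC1-6 also lay above βTC1 for miR-27a over miR-27b and for miR-27a* over miR-27b*.

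**Figure D3:**
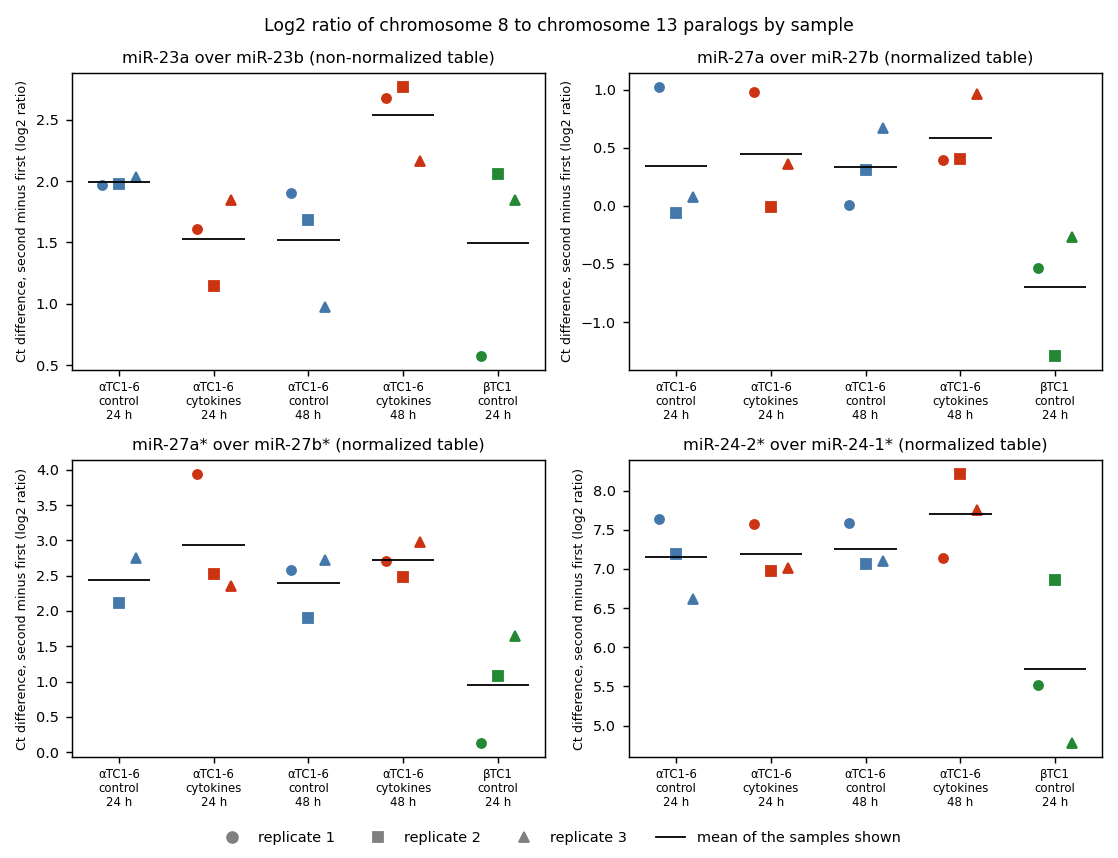
Log2 ratio of the chromosome 8 to the chromosome 13 paralog (y axis, Ct of the second assay minus Ct of the first) in each sample of the 5 groups (x axis), with a line at the mean. The βTC1 samples are the lowest for miR-27a over miR-27b and miR-27a* over miR-27b*, and miR-23a over miR-23b is highest in the cytokine-treated cells of 48 h.

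The next comparisons asked how αTC1-6 respond to the cytokine mixture. At 24 h, 0 of the 10 assays tested passed the adjusted threshold, 0 had an unadjusted limma p under 0.05 and 0 had groups that did not overlap, where the shares of all 445 miRNAs tested were 0.225%, 4.49% and 13.3%. MiR-27b had a ΔCt of 3.996, 5.001 and 4.958 in treated and 3.968, 4.199 and 4.339 in untreated cells, a log2 difference of −0.48 (95% confidence interval −1.52 to 0.55). MiR-27a differed by −0.39 (−2.16 to 1.39). Replicate 1 was the highest of its group for both in treated and in untreated cells. MiR-24 differed by −0.05 (−1.28 to 1.17) and miR-23b, with 2 treated samples, by −0.23 (−1.55 to 1.09). In the non-normalized table miR-23a differed by −0.43 (−1.54 to 0.68, limma adjusted p = 0.989). The median was −0.14 over the 10 assays and −0.15 over all miRNAs tested.

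At 48 h the miR-27 guide strands and miR-23b were lower in every treated than in every untreated sample, with differences that did not pass the adjusted threshold. MiR-27b had a ΔCt of 5.04, 5.23 and 5.49 in treated and 3.97, 4.29 and 4.66 in untreated cells. The log2 difference was −0.94 (SE 0.33, 95% confidence interval −1.78 to −0.10), with an unadjusted limma p of 0.034 and an adjusted p of 0.480. Replicates 1, 2 and 3 all had less miR-27b than the untreated sample of the same number.

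MiR-27a had a ΔCt of 4.64, 4.83 and 4.53 in treated and 3.97, 3.98 and 3.99 in untreated cells. The log2 difference was −0.69 (SE 0.26, −1.36 to −0.02), with an unadjusted limma p of 0.0459 and an adjusted p of 0.526. The untreated samples were almost identical here. All 3 untreated miR-27a wells and all 3 of their miR-26a wells had a Ct in the final 0.1 of a cycle.

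MiR-23b had a ΔCt of 7.213, 7.651 and 7.417 in treated and 7.001, 7.002 and 7.036 in untreated cells, a log2 difference of −0.41 (−1.12 to 0.29). MiR-24 overlapped, with a difference of −0.18 (−0.86 to 0.51). MiR-23a, which had a Ct in all 6 samples of both tables at 48 h, had a ΔCt of 4.53, 4.88 and 5.25 in treated and 5.10, 5.32 and 6.06 in untreated cells. Its log2 difference of 0.61 (−0.43 to 1.64) was the only positive one among the 5 guide-strand assays.

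Of the 11 assays tested at 48 h, 0 passed the adjusted threshold, where 0.562% of all 534 miRNAs did. An unadjusted limma p under 0.05 was found for 2 of the 11, against 11.2% of all miRNAs, and 3 of the 11 did not overlap with treated cells lower, against 17.2%. The median log2 difference was −0.60 over the 11 assays and −0.51 over all miRNAs tested, so the differences of miR-27a and miR-27b relative to miR-26a stand on arrays where most miRNAs had negative differences. The median ΔCt over the miRNAs of a card with a Ct in every sample shifted more on card B. On card A it was 6.91, 7.38 and 7.51 in treated and 6.45, 6.99 and 7.03 in untreated cells. On card B, which holds 6 of the 11 assays, it was 9.01, 10.1 and 9.73 against 7.88, 9.11 and 8.13. With centring on the median of each sample, under which the median of all miRNAs was 0.19, miR-27a differed by −0.24 and miR-27b by −0.50, while miR-23b (0.03) and miR-24 (0.27) turned positive. With the replicate number as a block, the limma adjusted p-values were 0.246 for miR-27a and 0.232 for miR-27b.

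The star strands overlapped at 48 h. MiR-27a* had a ΔCt of 5.40, 8.24 and 7.56 in treated and 5.29, 8.07 and 6.93 in untreated cells, and miR-27b* 8.11, 10.7 and 10.5 against 7.87, 9.96 and 9.66. The differences were −0.31 (−3.05 to 2.43) and −0.63 (−3.13 to 1.88). The spread between replicates, in which replicate 1 was highest in both groups, was wider than either difference. By replicate number the changes were −0.11, −0.17 and −0.63 for miR-27a* and −0.23, −0.77 and −0.88 for miR-27b*. Those of rno-miR-23a* were of both signs (−2.05, 0.89 and −1.70). MiR-24-2* differed by −0.60 (−0.45, −0.64 and −0.72 by replicate number) and miR-24-1* by −1.06. Both turned positive with centring on the median (0.63 and 0.18), and so did miR-27a* and miR-27b*.

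**Figure D4:**
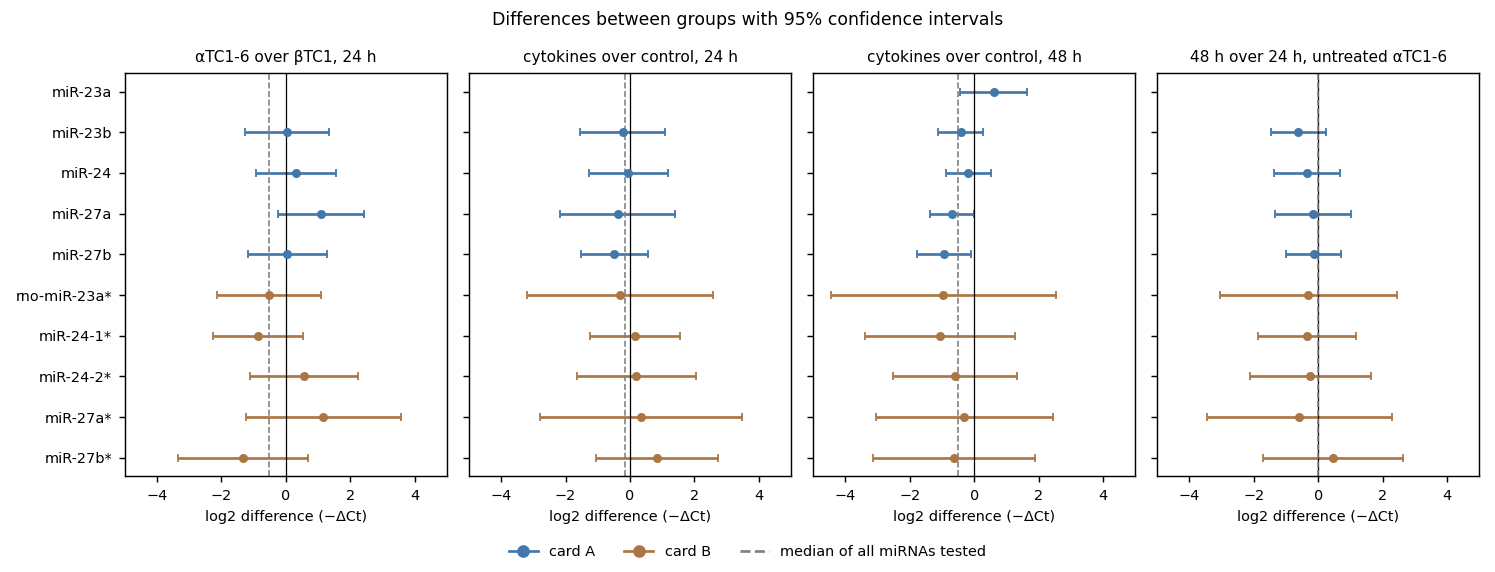
Log2 difference (x axis) of 10 assays (y axis) in 4 comparisons, as limma estimates with 95% confidence intervals, with card A in blue, card B in brown and the median of all miRNAs tested as a dashed line. The intervals of miR-27a and miR-27b for cytokines at 48 h lie below 0, and all other intervals shown cross it. MiR-23a is drawn only where all samples had a Ct, and rno-miR-24-1* is left out.

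Within a sample, the ratio of the miR-23 paralogs was higher in cytokine-treated than in untreated cells at 48 h. The miR-23a over miR-23b log2 ratio was 2.68, 2.77 and 2.17 in treated and 1.90, 1.69 and 0.97 in untreated cells, a difference of 1.02 (SE 0.34, two-sided exact permutation p = 0.1) with the same values in both tables. By replicate number the differences were 0.78, 1.08 and 1.20. All 3 untreated miR-23b wells of 48 h had a Ct in the final 0.1 of a cycle, which held for only 1 of the 15 Ct values of miR-23a. The part of this in the ratio was not tested. Groups that did not overlap were found for 17.8% of pairs of card A in the same table. At 24 h, read from the non-normalized table, the ratio was 1.61, 1.14 and 1.84 in treated and 1.97, 1.98 and 2.04 in untreated cells, a difference of −0.46 (SE 0.21, exact permutation p = 0.1) in the other direction, where 12.3% of pairs did not overlap. Untreated cells of 48 h also lay below those of 24 h, by 0.48 (SE 0.28, exact permutation p = 0.1), where 9.34% of pairs did not overlap.

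The cytokine effect on this ratio was larger at 48 h than at 24 h by 1.48. In an exact permutation test that exchanged treated and untreated labels within each time point, the two-sided p was 0.005, the smallest that 400 relabellings can give. It was 0.02 after Benjamini-Hochberg adjustment over 4 paralog pairs. This exchange stands for no cytokine effect at either time, not for equal effects at both. Groups without overlap in opposite directions at the 2 times give its smallest p, so it adds no separate test of their difference. The replicate numbers paired the treated and untreated samples, however. With labels exchanged only within the 6 pairs of samples of the same number, the exact permutation p was 0.031, the smallest that 64 relabellings can give. After adjustment it was 0.125, the lowest that 1 paralog pair alone could reach, so this exchange could not have kept the call. The other paralog pairs had p-values of 0.72, 0.855 and 0.455 in the exact permutation test without the pairing. Of the 6 samples of 24 h, 4 hold a miR-23a Ct that the normalized table lists as undetermined, and the 24 h arm of this result rests on them. The miR-27a over miR-27b ratio differed by 0.26 at 48 h and by 0.10 at 24 h (exact permutation p = 0.4 and 0.8), with overlap at both. The miR-24-2* over miR-24-1* ratio also overlapped at both times. The miR-27a* over miR-27b* ratio overlapped at both times in the normalized table, but in the non-normalized table treated cells of 48 h lay above untreated ones by 0.62 (SE 0.28, exact permutation p = 0.1) without overlap, where 15.3% of pairs of card B did not overlap.

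The cytokine effects at 24 h and at 48 h were also set against each other assay by assay. Of the 11 assays, with miR-23a fitted through wells at a Ct of 40, 0 passed the adjusted limma threshold and 0 had an unadjusted p under 0.05, where 0.21% and 3.98% of 477 miRNAs did. In the non-normalized table miR-23a had a difference of 1.04 (−0.24 to 2.32, limma adjusted p = 0.996). The comparisons at 24 h and 48 h share no sample. Time in culture was read from the untreated αTC1-6 of 48 h and 24 h. In the normalized table, 0 of the 11 assays passed the adjusted threshold and 0 had an unadjusted p under 0.05, where 5.93% and 8.79% of 489 miRNAs did. Non-overlapping groups with the 48 h samples lower were found there for 1 of the 11, against 3.89% of all miRNAs. It was miR-23b, with a ΔCt of 7.001, 7.002 and 7.036 at 48 h and 5.997, 6.405 and 6.787 at 24 h and a log2 difference of −0.62 (−1.48 to 0.24, limma adjusted p = 0.749). All 3 miR-23b wells of 48 h had a Ct in the final 0.1 of a cycle. MiR-24, miR-27a and miR-27b differed by −0.34, −0.16 and −0.14. MiR-23a has no usable value for this comparison in the normalized table, since 1 of the 3 samples of 24 h is undetermined there. With the non-normalized table its ΔCt was 5.10, 5.32 and 6.06 at 48 h against 4.03, 4.42 and 4.75 at 24 h, and the difference was −1.09 (−2.16 to −0.026), with an unadjusted limma p of 0.0463 and an adjusted p of 0.973. In that table an unadjusted p under 0.05 was found for 1 of the 11 assays, miR-23a, against 3.65% of 520 miRNAs, and 2 of the 11, miR-23a and miR-23b, did not overlap with the 48 h samples lower, against 3.85%.

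The levels over the 5 groups are given by group means. For miR-24 the mean ΔCt ran from −1.34 ± 0.60 (SD, n = 3) in untreated αTC1-6 at 24 h through −1.29 in treated cells of 24 h, −1.016 in βTC1 and −1.001 in untreated cells of 48 h to −0.83 ± 0.19 (SD, n = 3) in treated cells of 48 h, and each group overlapped the next. For miR-27a it ran from 3.82 ± 0.76 (SD, n = 3) in untreated αTC1-6 at 24 h through 3.98 at 48 h, 4.21 in treated cells of 24 h and 4.67 in those of 48 h to 4.91 ± 0.17 (SD, n = 3) in βTC1, again with overlap of each neighbour. For miR-27b and miR-23b the treated cells of 48 h were lowest, at 5.25 ± 0.23 and 7.43 ± 0.22 (SD, n = 3), and did not overlap the group next to them. The means of miR-24-1* ran from 10.5 in βTC1 to 12.8 in treated cells of 48 h, those of rno-miR-23a* from 12.9 to 14.7 over the same groups, and those of miR-27a* from 5.83 in treated cells of 24 h to 7.34 in βTC1, and in all 3 each group overlapped the next.

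The assays whose course over the 15 samples was most like that of each member were found by the SD of the Ct difference, which needs no reference. The nearest to miR-24 were miR-491 (SD 0.22 cycles), miR-425 (0.24) and miR-191 (0.27) among 155 assays of card A with a Ct in every sample, whose median SD was 0.84. The nearest to miR-27a were miR-325 (0.32), miR-328 (0.42) and miR-24 (0.43), against a median of 1.04. The nearest to miR-27b were miR-129-5p (0.35), miR-93 (0.36) and miR-491 (0.38). MiR-27b ranked 20 of 155 for miR-27a (SD 0.62), and miR-27a ranked 47 for miR-27b, so the near-identical guide strands were not each other's nearest assay. Among 128 assays of card B, miR-24-2* was the nearest but 1 to miR-27a* of the same cluster (0.68), after miR-29b* (0.56). The nearest to miR-24-2* were miR-7a* (0.41), miR-28* (0.46) and miR-877* (0.50), and the nearest to miR-24-1* were miR-186* (0.48), miR-374 (0.58) and miR-877 (0.58). For rno-miR-23a*, whose Ct was the highest, the nearest was miR-135a* at 1.03, against a median of 1.45.

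A list of 10 miRNAs known to respond to NF-κB, IL-1 or TNF was set beside the members. At 48 h, 1 of its 9 tested miRNAs, miR-146a, rose past the adjusted threshold and 0 fell, with a median log2 difference of 1.14. Of all miRNAs tested 0.562% passed, with a median of −0.51. At 24 h 0 of 9 passed, with a median of 1.05, where 0.225% of all passed and the median was −0.15. With the replicate number as a block, and also without treated replicate 2 or 3, 0 of all miRNAs passed at 48 h, so the call of miR-146a was lost. A list of 23 miRNAs of blood vessels, where these clusters are well known, had 2 of 20 tested miRNAs higher and 14 lower in αTC1-6 than in βTC1, with a median of −3.26, where 29.6% of all miRNAs passed in either direction and the median was −0.52, and 0 of 20 passed for cytokines at 48 h. Those called between the lines include both strands of miR-126, and miR-17, miR-18a, miR-19a and miR-20a of the same cluster, so they are not independent. MiR-128a, whose seed is that of miR-27 shifted by 1 base, differed by 0.56 between the lines and by −0.85 with cytokines at 48 h, and did not pass the adjusted threshold in either.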

How the data were processed

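TaqMan cards were read as Ct by the authors. Per the file headers, the deposited normalized table holds ΔCt (a log2 scale), the Ct minus that of miR-26a, with undetermined wells at 40, and a non-normalized table holds Ct. The authors' deposited fold changes are their own comparisons and were not used. Software named in the methods for quantification is Real-Time StatMiner. Ct was recovered by adding back the Ct of miR-26a (tolerance 0.001 cycles), and duplicate wells were averaged. For the miR-27 star strands, where both wells had a value, the non-normalized Ct matched a single well of the duplicate instead of their mean. limma 3.58.1 in R 4.3.3 (lmFit, eBayes, two-sided) was fitted to the samples compared, on miRNAs with a Ct in 3 or more of 6 samples, with Benjamini-Hochberg adjustment within each card. Array precision is limited by 3 samples a group. Exact permutation tests covered single values. The replicate numbers were checked for pairing: deviations of same-numbered samples correlated at 0.337, 0.355 and 0.539 in the 24 h and 0.528, 0.574 and 0.621 in the 48 h cytokine comparison. The fit was tested on simulated data. Named miRNAs are all members and their 3 nearest assays. Members and lists were chosen with earlier results of these data known. Alternatives covered the reference, the table, the filter, undetermined wells, duplicate wells, the adjustment, the samples fitted, the block, the control time and each replicate.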

Additional observations from a re-analysis of the deposited data

Results flagged for a closer look

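The cytokine effect on the miR-23a over miR-23b ratio at 48 h minus that at 24 h was 1.48 on the log2 scale. It was picked out by the exact permutation test within time points, which stands for no cytokine effect at either time, not for equal effects. The ratio was higher in 3 of 3 treated samples of 48 h and lower in 3 of 3 of 24 h. With labels exchanged only between samples of the same replicate number, the exact permutation p was 0.031, and 0.125 after adjustment over 4 paralog pairs. Both are the lowest that this pair alone could reach.

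In 7 samples miR-23a is undetermined in the normalized table and has a Ct of 22.4 to 23.8 in the other, a signal in data outside the main measurement.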

How the results depend on the processing

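Of the members, 0 passed the adjusted limma threshold in the cytokine comparisons at 24 h and at 48 h under any alternative. Between the lines, 2 passed with centring on the median (miR-27a and miR-24), and 1, miR-23a, when the αTC1-6 side was the untreated 48 h group, where its undetermined wells stand at a Ct of 40. For the difference between the time points 0 to 1 passed when a replicate was left out. The one was miR-23a without untreated αTC1-6 replicate 3 of 24 h, again through wells at 40. The difference of the miR-23a over miR-23b cytokine effects between 48 h and 24 h lay between 1.21 and 1.67 without any 1 replicate, with exact permutation p-values of at most 0.01 before adjustment and without the pairing. Only 3 samples a group limit the precision, and the cause of the changes below was not tested.

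The number of all miRNAs called between the lines was 142, and 93 with undetermined wells as missing, 81 with a Ct required in every sample and 94 to 110 with a replicate left out, at 94 without αTC1-6 replicate 3 or βTC1 replicate 1 or 2. For cytokines at 24 h it was 1, and 0 with the non-normalized table, with Ct above 35 set to 35, with undetermined wells as missing and with a Ct required in every sample, 2 in 1 fit over all 15 samples, and 0 to 2 with a replicate left out (0 without untreated replicate 2 or 3, 2 without treated replicate 1 or 2). For cytokines at 48 h it was 3, and 1 with undetermined wells as missing, 5 in 1 fit over all 15 samples and 0 to 5 with a replicate left out (0 without treated replicate 2 or 3, 5 without untreated replicate 1). For time in culture it was 29, and 2 with the non-normalized table, 2 with undetermined wells as missing, 1 with a Ct required in every sample and 0 to 30 with a replicate left out, at 0 without any 1 of the 48 h samples. For the difference between the time points it was 1, and 2 with centring on the median or with Ct without normalization, 3 with no filter, 0 with the non-normalized table, with Ct above 35 set to 35, with undetermined wells as missing and with a Ct required in every sample, and 1 to 4 with a replicate left out (4 without treated replicate 1 of 24 h).

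With the replicate number as a block, the numbers of miRNAs called for cytokines at 24 h and at 48 h were 0 and 0. An unadjusted limma p under 0.05 was more common with the block, however. It was found for 47 of 445 miRNAs at 24 h, against 20 in the main fit. At 48 h it was found for 121 of 534, against 60. For the difference of the miR-23a over miR-23b cytokine effects between the times (1.48), exchange of labels within same-numbered pairs, chosen after seeing the data, raised the adjusted exact permutation p from 0.02 to 0.125. That is the lowest adjusted p that 1 paralog pair alone could reach with 64 relabellings, so this exchange could not keep the call. Under the same pairing miR-27a* over miR-27b*, with 5 pairs, turned to 0.31. The block changed no other call reported for the members. Between the lines (0.282, 0.14 and 0.0978) and between the times (0.0862, 0.0502 and −0.0273), deviations of same-numbered samples did not all correlate above 0.1, and the block gave 115 and 23 miRNAs called.

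Directions turned for members that did not pass the threshold. Between the lines, U6 and small nucleolar RNAs as reference gave −0.43 for miR-23b, −0.14 for miR-24 and −0.42 for miR-27b, and the untreated 48 h αTC1-6 group gave −0.58, −0.014 and −0.095. The median of all miRNAs was −0.81 with the former and 0.01 with centring on the median. The first duplicate well gave −0.026 for miR-24-2*. For cytokines at 24 h, the non-normalized table gave 0.033 for miR-23b. For cytokines at 48 h, centring on the median gave 0.030 for miR-23b, 0.27 for miR-24, 0.18 for miR-24-1*, 0.63 for miR-24-2*, 0.93 for miR-27a* and 0.61 for miR-27b*, and U6 and small nucleolar RNAs, with a median of all miRNAs of −0.06, gave 0.16 for miR-24, 0.064 for miR-24-2*, 0.36 for miR-27a* and 0.041 for miR-27b*. For time in culture that reference gave 0.059 for miR-24, 0.24 for miR-27a and 0.26 for miR-27b. MiR-23a, at 4.76 through a well at 40, gave −1.09 with the non-normalized table and −1.27 with undetermined wells as missing. The change of the miR-27a* over miR-27b* cytokine effect between the times was −0.19, and 0.34 with the non-normalized table, which carries a single duplicate well for these assays.

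With a replicate left out, values between the lines ranged from −0.32 to 0.24 for miR-23b, −0.011 to 0.56 for miR-24, −0.14 to 0.41 for miR-27b and −0.0088 to 0.89 for miR-24-2*. For cytokines at 24 h they ranged from −0.62 to 0.17 for miR-23b, −0.36 to 0.28 for miR-24 and −0.98 to 0.053 for miR-27a, and at 48 h from −1.14 to 0.43 for miR-27a* and −1.47 to 0.020 for miR-27b*. For time in culture they ranged from −0.38 to 0.28 for miR-27a, −0.31 to 0.035 for miR-27b and −1.27 to 7.88 for miR-23a. The difference of the cytokine effects between the times ranged from −0.18 to 0.43 for miR-27a over miR-27b and from −0.48 to 0.31 for miR-27a* over miR-27b*. At 48 h, miR-27a (−0.75 to −0.61) and miR-27b (−1.12 to −0.78) kept their direction without any 1 replicate.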
